A study of Mus musculus with 36 samples.

Results

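The intercalated disc is the end-to-end junction between cardiomyocytes, and 10 genes whose proteins build it were followed in the hearts of CUG960 mice: the desmosome genes Dsp, Pkp2, Jup, Dsg2 and Dsc2, the adherens junction genes Cdh2 and Ctnna3, the scaffold gene Tjp1, and the actin-binding repeat genes Xirp1 and Xirp2. They were chosen by name, with no measured value in the rule but with earlier results of these data known. The deposited tables held 55291 symbols, and all 10 were among the 19231 genes with enough counts to be tested. Poly(A) RNA was sequenced from the left ventricle (LV) and the atria of 6 cohorts, with 3 libraries in each of the 12 groups (36 libraries). Every animal carried 2 transgenes: TREDT960I (homozygous), in which 960 interrupted CTG repeats lie within human DMPK sequence behind a TRE promoter, and MHCrtTA (hemizygous), whose α-MHC promoter restricts the rtTA activator to cardiomyocytes. The +dox cohort received doxycycline from postnatal day 1 onward, the –dox cohort was never given it, and the +/–dox cohort was taken off it at 9 weeks. Doxycycline was continued in the cohorts called MBNL1, MBNL2 and MBNL1+MBNL2, which were injected through the tail vein at 9 weeks with AAV9 vectors in which a human TNNT2 promoter drives 3XFLAG-MBNL1, 3XMYC-MBNL2 or both. Hearts were taken at 21 weeks, 12 weeks after vector injection, and both tissues came from the same 18 animals, 3 per cohort. The labels do not say which LV and atrial libraries share an animal, so in the unpaired fit the samples of one mouse count as independent in every comparison of the chambers. Both sexes were used, with no female listed in the MBNL1+MBNL2 cohort, and since the labels give no sex, it was not in the model and its part was not tested. The +dox cohort received no control vector, so an effect of MBNL protein and one of the vector cannot be told apart. Nor can repeat RNA be told apart from doxycycline itself, which differ together between cohorts, and no animals without both transgenes were analysed here.

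Desmosomes hold neighbouring cells together through the cadherins encoded by Dsg2 and Dsc2, whose cytoplasmic tails bind plakoglobin (Jup) and plakophilin-2 (Pkp2), which in turn bind desmoplakin (Dsp), the anchor for desmin filaments. Adherens junctions are built on N-cadherin (Cdh2), which is tied to actin by catenins, among them αT-catenin (Ctnna3). In the mammalian heart both junctions mix at the disc into a hybrid structure, and plakoglobin is found in both. ZO-1 (Tjp1) is a scaffold that borders gap junctions, and the Xin-repeat proteins Xirp1 and Xirp2 bind actin beside the adherens junction. Inherited defects of the desmosome genes cause arrhythmogenic cardiomyopathy.

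Libraries held 55.0 to 97.1 M expected counts, with 20550 to 23993 genes detected, except LV MBNL1 replicate 1, which had 16876. The LV MBNL1 values of Jup, Ctnna3 and Tjp1 against +dox are given with and without it, and other LV MBNL1 values with it only. The 10 genes took 0.301% to 0.504% of the counts, from 2896 reads for Dsg2 in one LV library to 159051 for Xirp2. Library names fall into a set A of 20 (replicates 1 and 2 of every cohort but MBNL1+MBNL2) and a set B of 16 (the rest), so the MBNL1+MBNL2 cohort can be compared within set B only, where every other cohort has 1 library per chamber. The chamber labels held: 5 ventricular markers summed to 19974 to 28117 TPM in the LV and 289 to 1105 in the atria, and 5 atrial markers to 92.2 to 1007 and 40261 to 61759. Mbnl1 reached 62.1 ± 5.87 TPM in LV MBNL1 libraries against 49.6 ± 4.92 in +dox (SD, n = 3), and Mbnl2 reached 151 ± 23.5 in LV MBNL2 libraries against 100.1 ± 7.34. The rises were smaller in the atria, with Mbnl1 at 70.2 ± 4.54 in MBNL1 against 59.9 ± 4.79 in +dox, and Mbnl2 at 156 ± 13.2 in MBNL2 against 135 ± 1.21. Reads from the human vector and the mouse gene were not separated. These are bulk tissue samples, so fewer cells of a type and less RNA per cell cannot be told apart.

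Levels were compared between genes as TPM, a share of transcripts that divides by transcript length. In the LV, Dsp was the most abundant of the 10, with a median of 220.2 TPM (181 to 259) over 18 libraries, followed by Xirp2 with 140.5 TPM (106 to 209). Jup, at 122 TPM (72.4 to 134), and Cdh2, at 115 TPM (94.2 to 128), could not be ordered, since Jup was the higher in 7 of 18 libraries. Xirp1 followed at 68.5 TPM (55.2 to 98.5) and Pkp2 at 52.7 TPM (46.0 to 62.5). The lower end held Tjp1 at 30.4 TPM (28.0 to 38.4), Ctnna3 at 23.2 TPM (18.3 to 28.8), Dsc2 at 16.4 TPM (14.0 to 22.0) and Dsg2 at 14.6 TPM (10.6 to 16.7). Pkp2 and Tjp1 were the only neighbours in this order whose ranges did not overlap, although within single libraries most neighbours kept their order in all 18. The linker desmoplakin thus stood far above the desmosomal cadherins it serves: the Dsp to Dsg2 TPM ratio was 14.0 ± 1.92 in LV +dox libraries.

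The atrial order was flatter. Dsp again led, at 172 TPM (159 to 219), and Jup came next at 126 TPM (103 to 145); these 2 and Cdh2, at 84.0 TPM (77.7 to 93.2), did not overlap. The remaining neighbours overlapped: Xirp2 at 80.6 TPM (69.7 to 101), Xirp1 at 76.5 TPM (61.4 to 94.7), Dsc2 at 59.2 TPM (48.7 to 73.6), Tjp1 at 58.9 TPM (49.4 to 74.2), Pkp2 at 50.1 TPM (43.2 to 58.2), Dsg2 at 49.2 TPM (44.0 to 59.5) and Ctnna3 at 48.3 TPM (38.4 to 56.9). The cadherins and desmoplakin were closer to each other here, with a Dsp to Dsg2 ratio of 3.04 ± 0.32 in atrial +dox libraries.

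**Figure D1:**
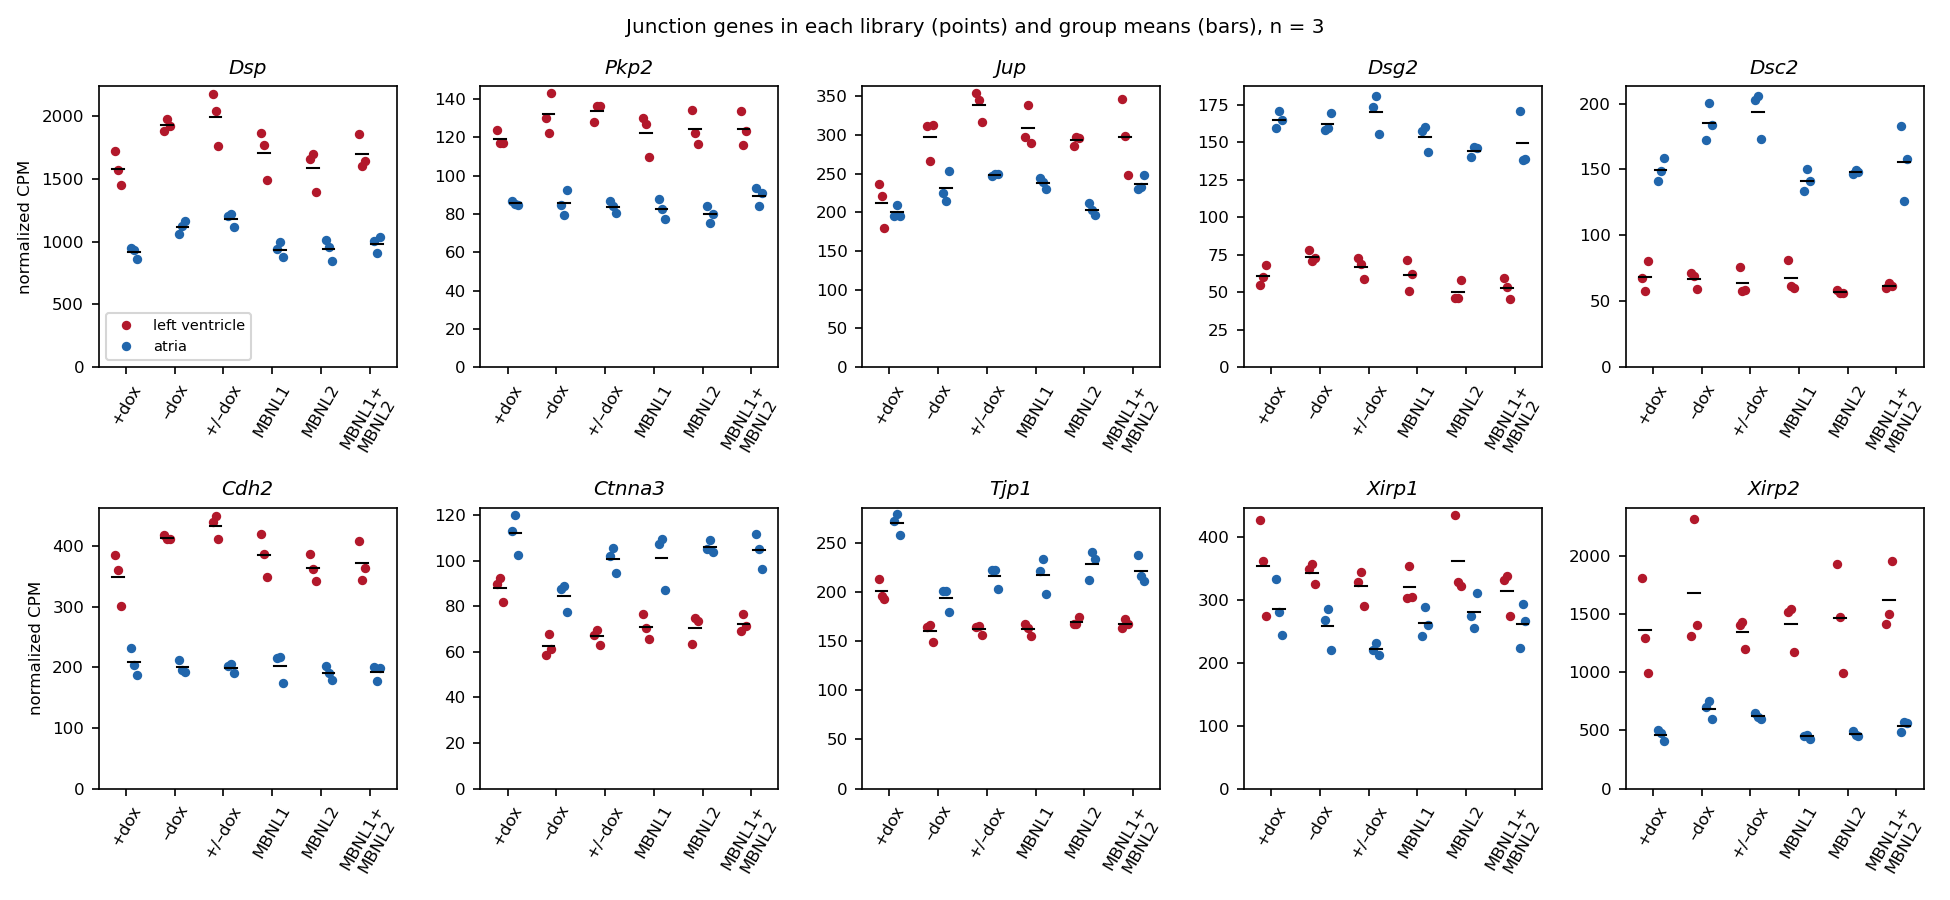
Normalized CPM (vertical axes from 0) of the 10 genes in every library, with 1 panel a gene, the 6 cohorts on the horizontal axis, LV in red and atria in blue; points are libraries and bars the mean of 3. All 15 LV libraries of the other cohorts lie above the 3 LV +dox libraries for Jup and below them for Ctnna3 and Tjp1, and Dsg2 and Dsc2 are higher in every atrial than in every LV library.

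The first question was how disc genes differ from +dox when the repeat RNA was never induced (–dox) or its induction was stopped (+/–dox). In the LV, Jup was higher off doxycycline, and Ctnna3 and Tjp1 were lower, in both comparisons. Dsp was also higher in both, and Cdh2 in +/–dox. In –dox against +dox 4 of 10 genes passed an adjusted p of 0.05, 2 up and 2 down, against 20.9% of all tested genes; in +/–dox 5 of 10 passed, 3 up and 2 down, against 21.8%. The median log2 fold change of the 10 was 0.20 and 0.06, that of all tested genes 0.01 and 0.00. Differences were below 1.5-fold apart from Jup in +/–dox, the only one of the 10 past both thresholds there, where 6.60% of all genes were. Both comparisons, and those of the MBNL cohorts, share the same 3 +dox libraries per chamber.

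Jup, plakoglobin, had 236, 221 and 180.2 CPM (normalized counts scaled to library size) in the LV +dox libraries. It had 312, 266 and 313 CPM in –dox and 355, 345 and 316 CPM in +/–dox. Neither cohort overlapped +dox. The log2 difference was 0.48 (SE 0.0929, adjusted p = 0.000321) in –dox and 0.67 (SE 0.093, adjusted p = 4.54e-06) in +/–dox, and both passed without any 1 of the libraries. The +/–dox difference was past 1.5-fold in some but not all of the fits that left out 1 library. By library set the –dox difference was 0.34 within set A and 0.79 within set B, and the +/–dox difference 0.61 within set A and 0.81 within set B.

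Ctnna3, αT-catenin, moved the other way. Its CPM were 89.9, 92.5 and 81.7 in LV +dox, 58.7, 68.0 and 61.2 in –dox and 67.6, 69.8 and 63.1 in +/–dox, again without overlap. It fell by 0.49 on the log2 scale in –dox (SE 0.0863, adjusted p = 0.000103), and the +/–dox difference was -0.40 (SE 0.0862, adjusted p = 0.00116). The TPM ratio of Jup to Ctnna3 was 2.81 ± 0.256 in LV +dox, 5.49 ± 0.821 in –dox and 5.74 ± 0.28 in +/–dox, so these plakoglobin and catenin transcripts shifted against each other by more than the spread between libraries. The –dox difference of Ctnna3 was -0.53 within set A and -0.42 within set B.

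Tjp1, which encodes ZO-1, had 213, 196 and 193 CPM in LV +dox. It had 164, 167 and 149 CPM in –dox and 165, 165 and 156 CPM in +/–dox, all below the lowest +dox library. The log2 differences were -0.33 (SE 0.0667, adjusted p = 0.000579) and -0.31 (SE 0.0667, adjusted p = 0.00107). Neither Tjp1 nor Ctnna3 lost its call in either comparison when any 1 library was left out. The –dox difference of Tjp1 was -0.31 within set A and -0.37 within set B.

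Dsp, desmoplakin, had 1721, 1572 and 1455 CPM in LV +dox, 1884, 1982 and 1921 in –dox and 2176, 2043 and 1760.2 in +/–dox. Each of these libraries was above the highest +dox library. The log2 differences were 0.29 (SE 0.0909, adjusted p = 0.0233) in –dox and 0.33 (SE 0.0909, adjusted p = 0.00799) in +/–dox. These calls were less firm: the –dox adjusted p was 0.055 to 0.122 without +dox replicate 2 or 3 or –dox replicate 2 or 3, and the +/–dox value 0.058 to 0.07 without +dox replicate 3 or +/–dox replicate 1. Cdh2, N-cadherin, had 386, 359.8 and 300.4 CPM in LV +dox, 418, 411 and 412 in –dox and 439, 449.8 and 412 in +/–dox. It rose in +/–dox (0.31, SE 0.0917, adjusted p = 0.0126), but not without +dox replicate 3 or +/–dox replicate 2 (adjusted p 0.0569 to 0.12). Its –dox value, 0.25 (adjusted p = 0.0522), was just outside the threshold, and inside it without +dox replicate 1 (adjusted p = 0.0269), with a library set term (0.25, adjusted p = 0.00667), with RLE factors, with DESeq2 and on log2 TPM. Both genes had the same sign in each library set: the +/–dox difference was 0.36 within set A and 0.27 within set B for Dsp, and 0.25 within set A and 0.46 within set B for Cdh2.

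The desmosomal cadherins and Pkp2 did not pass in the LV. Dsg2 differed by 0.28 (adjusted p = 0.0724) in –dox and 0.13 (adjusted p = 0.447) in +/–dox, the first of which passed without +dox replicate 3 (adjusted p = 0.036). Dsc2 differed by -0.04 (95% interval -0.29 to 0.21) in –dox, and Pkp2 by 0.15 (95% interval -0.00 to 0.30). Xirp1, at -0.04 (95% interval -0.33 to 0.24), also did not pass. Xirp2 had the largest standard errors of the 10, with 1808, 1295 and 989 CPM in LV +dox and 1313, 2319 and 1407 in –dox, and its interval was wide (0.30, 95% interval -0.13 to 0.73). A p that misses the threshold does not show that these genes were equal, and for Xirp2 a change of 1.5-fold lay within the interval.

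Marker sums of several cell types are given beside these differences. Endothelial cells also make plakoglobin and ZO-1, and the 6 endothelial markers Pecam1, Cdh5, Kdr, Tek, Emcn and Egfl7 summed to 198 to 209.7 TPM in LV +dox, 240.2 to 305 in –dox and 246 to 269 in +/–dox, with none at 0 in any library. Of these markers 5 of 6 rose in –dox and 4 of 6 in +/–dox. The 8 cardiomyocyte markers summed to 27739.6 to 29678 TPM in +dox, 28866 to 31470.3 in –dox and 32956 to 34771 in +/–dox, where 2 rose and 1 fell in –dox and 4 rose and 1 fell in +/–dox. The 6 fibroblast markers summed to 619 to 687, 551 to 669.9 and 692 to 768 TPM in the same order, with 1 of 6 higher in –dox and 2 of 6 in +/–dox. The 5 smooth muscle and pericyte markers summed to 171 to 229, 217 to 263 and 194 to 224 TPM in that order. The 5 macrophage markers summed to 80.9 to 126, 78.2 to 91.4 and 80.7 to 112 TPM. In both of these lists the cohorts off doxycycline overlapped +dox. The part of any of these markers in the differences of the disc genes was not tested.

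Jup and Dsp rose, and Ctnna3 and Tjp1 fell, in the LV of both cohorts off doxycycline, and their start-site regions are printed for that reason. Dsp lies on chromosome 13 (GRCm38, 38151294 to 38198577, plus strand), Jup on chromosome 11 (100368958 to 100397763, minus strand), Ctnna3 on chromosome 10 (63430098 to 65003667, plus strand) and Tjp1 on chromosome 7 (65296165 to 65527781, minus strand). RefSeq windows on GRCm38.p6, from 250 bases before to 50 bases after a transcript start, were matched for 5 of the 10 genes. They cover chr13:38151044-38151343 (plus), chr11:100397741-100398040 (minus), chr10:63429848-63430147 (plus) and chr7:65371195-65371494 (minus), each read 5′ to 3′ on the gene's own strand (the Tjp1 window lies inside the gene, at the start of a shorter transcript), with the GC box GGGCGG or its complement CCGCCC in capitals:
Dsp: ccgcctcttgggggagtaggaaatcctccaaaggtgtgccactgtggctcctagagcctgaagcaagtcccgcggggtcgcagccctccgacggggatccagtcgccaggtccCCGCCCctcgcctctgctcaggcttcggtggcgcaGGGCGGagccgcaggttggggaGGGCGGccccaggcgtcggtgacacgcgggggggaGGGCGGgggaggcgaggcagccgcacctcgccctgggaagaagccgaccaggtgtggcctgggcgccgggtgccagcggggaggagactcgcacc
Jup: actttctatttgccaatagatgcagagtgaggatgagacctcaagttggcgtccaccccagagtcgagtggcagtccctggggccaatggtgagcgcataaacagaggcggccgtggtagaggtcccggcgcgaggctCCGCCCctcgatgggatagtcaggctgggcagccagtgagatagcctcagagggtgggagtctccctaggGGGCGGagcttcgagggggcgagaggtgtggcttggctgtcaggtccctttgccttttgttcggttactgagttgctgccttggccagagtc
Ctnna3: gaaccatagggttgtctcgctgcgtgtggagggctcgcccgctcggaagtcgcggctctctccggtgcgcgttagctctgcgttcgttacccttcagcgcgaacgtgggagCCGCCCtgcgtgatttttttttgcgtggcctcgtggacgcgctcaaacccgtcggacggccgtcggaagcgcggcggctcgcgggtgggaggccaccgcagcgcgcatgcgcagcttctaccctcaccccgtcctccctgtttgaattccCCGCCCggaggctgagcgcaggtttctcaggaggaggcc
Tjp1: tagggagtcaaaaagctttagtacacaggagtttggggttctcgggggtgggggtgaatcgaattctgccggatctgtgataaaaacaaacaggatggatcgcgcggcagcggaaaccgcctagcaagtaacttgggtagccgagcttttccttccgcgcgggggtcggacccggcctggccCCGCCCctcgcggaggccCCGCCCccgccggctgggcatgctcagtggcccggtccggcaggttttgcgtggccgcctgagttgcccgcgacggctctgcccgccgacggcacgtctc

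All 4 windows were GC-rich, with 73.0% G and C in Dsp, 60.7% in Jup, 67.0% in Ctnna3 and 65.3% in Tjp1. The GC box, searched on both strands, occurred 4 times in Dsp and 2 times in each of the others, and 35.7% of the 32851 windows of the same length held it. The TEAD motif CATTCC (14.7% of windows), the TATA box TATAAA (13.6%) and the E box CAGCTG (16.3%), also searched on both strands, were not in these 4 windows or in that of Xirp2, which has no GC box either. The 2 genes that rose and the 2 that fell thus had the same one of these motifs; a match is a description of the letters only.

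In the atria, Tjp1 was again lower and Dsp again higher in both cohorts off doxycycline, and Ctnna3 fell in –dox. In –dox against +dox 3 of 10 genes passed, 1 up and 2 down, against 15.9% of all tested genes, and in +/–dox 4 of 10, 3 up and 1 down, against 12.6%. The median log2 fold change of the 10 was -0.01 and 0.01, against 0.03 and 0.03 over all tested genes. None of the 10 was past 1.5-fold with an adjusted p below 0.05.

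Tjp1 had 273, 279.8 and 259 CPM in atrial +dox, 201, 201 and 179.9 in –dox and 223, 223 and 203 in +/–dox, with no overlap. The log2 differences were -0.48 (SE 0.0667, adjusted p = 5.70e-06) and -0.32 (SE 0.0666, adjusted p = 0.0012), and both passed without any 1 library. By set the –dox difference of Tjp1 was -0.46 within set A and -0.52 within set B. Ctnna3 had 113, 120.3 and 103 CPM in +dox and 87.8, 88.9 and 77.4 in –dox (-0.40, SE 0.086, adjusted p = 0.00123). In +/–dox it had 102, 106 and 94.7 CPM, which overlapped +dox and did not pass (-0.15, 95% interval -0.33 to 0.02).

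Dsp had 947, 938 and 862 CPM in atrial +dox, 1059, 1126 and 1162 in –dox and 1206, 1218 and 1114 in +/–dox, again with no overlap. It rose by 0.37 (SE 0.091, adjusted p = 0.00654) in +/–dox, and passed without any 1 library. Its –dox call (0.29, SE 0.0909, adjusted p = 0.029) was lost, at adjusted p 0.0578 to 0.114, without any 1 of the +dox libraries or –dox replicate 2 or 3. Dsc2, the desmosomal cadherin, had 141, 149 and 159 CPM in +dox and 203, 206 and 173 in +/–dox, and Jup 196, 209 and 195 and 247, 249.6 and 249. Both rose in +/–dox, Dsc2 by 0.37 (SE 0.122, adjusted p = 0.0399) and Jup by 0.31 (SE 0.0927, adjusted p = 0.023). Dsc2 lost its call without replicate 1 or 2 of either cohort (adjusted p 0.11 to 0.171), and Jup without +dox replicate 1 or 3 or any 1 of the +/–dox libraries (adjusted p 0.06 to 0.0982). The Dsc2 difference was 0.49 within set A and 0.12 within set B, more than 1.5 times apart. In –dox Dsc2 had 173, 201 and 184 CPM and Jup 225, 214 and 254, each above the highest +dox library, but neither gene passed.

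Neither Xin-repeat gene passed in the atria in the fit of all libraries, and both were near the threshold. Xirp2 had 507, 477 and 409 CPM in +dox and 703, 752 and 601 in –dox, which did not overlap (0.56, SE 0.209, adjusted p = 0.0669). On TPM, which divides by transcript length, its rise was smaller, from 76.5 ± 4.85 in +dox to 97.8 ± 2.38 in –dox. Xirp1 differed in +/–dox by -0.37 (SE 0.139, adjusted p = 0.0817), and passed without +dox replicate 3 (adjusted p = 0.0369). With a library set term both passed, Xirp2 in –dox at 0.56 (adjusted p = 0.0108) and Xirp1 in +/–dox at -0.37 (adjusted p = 0.0426), and both also passed with DESeq2, with limma voom and with the atria fitted alone. The Xirp2 to Xirp1 TPM ratio was 0.917 ± 0.0356 in +dox, 1.33 ± 0.0879 in –dox and 1.4 ± 0.0442 in +/–dox. Cdh2 differed by -0.06 (95% interval -0.25 to 0.13) in –dox, Dsg2 by -0.02 (95% interval -0.24 to 0.20) and Pkp2 by 0.00 (95% interval -0.15 to 0.15). Beside these values, the endothelial markers summed to 262 to 298 TPM in atrial +dox, 330.3 to 401 in –dox (4 of 6 rose) and 288 to 348 in +/–dox (0 of 6). The 6 fibroblast markers summed to 1078 to 1322, 1427 to 1566 and 1238 to 1533 TPM, and none of either list was at 0. The 8 cardiomyocyte markers summed to 27838 to 28834, 30239 to 31455 and 30828 to 32696 TPM, with 4 of 8 higher in –dox and 4 in +/–dox. The 5 mesothelial markers summed to 15.0 to 54.8, 61.4 to 104 and 27.8 to 68.4 TPM and the 5 macrophage markers to 229.7 to 286, 204 to 243 and 164 to 213, and none of these 10 passed. Their part was not tested.

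The second question was how far AAV-delivered MBNL proteins, with doxycycline continued, moved the same genes. In the LV the same 3 genes passed in each of the MBNL1, MBNL2 and MBNL1+MBNL2 cohorts: Jup was higher and Ctnna3 and Tjp1 were lower than in +dox. That is 3 of 10, 1 up and 2 down, where 8.95%, 7.43% and 8.34% of all tested genes passed. Dsp, which rose in –dox and +/–dox, differed by 0.11 (adjusted p = 0.472), 0.01 (adjusted p = 0.982) and 0.10 (adjusted p = 0.55). With a library set term the MBNL1+MBNL2 values of Dsp, 0.24 (adjusted p = 0.0382), and of Xirp2, 0.60 (adjusted p = 0.0249), passed, while that of Ctnna3 did not. Cdh2 differed by 0.14 (adjusted p = 0.342), 0.06 (adjusted p = 0.754) and 0.09 (adjusted p = 0.595). The median log2 fold change of the 10 was 0.02, 0.02 and -0.05, against -0.04, -0.00 and -0.01 over all tested genes.

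Jup had 298, 339 and 289 CPM in LV MBNL1, 286, 297 and 296 in MBNL2 and 346, 299 and 248 in MBNL1+MBNL2, against 236, 221 and 180.2 in +dox. Every one of the 9 libraries was above the highest +dox library. The log2 differences were 0.54 (SE 0.0929, adjusted p = 0.000526) for MBNL1, 0.46 (SE 0.0928, adjusted p = 0.00304) for MBNL2 and 0.48 (SE 0.0929, adjusted p = 0.00104) for both. None was lost without 1 library, and without LV MBNL1 replicate 1, the library with few detected genes, the MBNL1 value was 0.56 (adjusted p = 0.00205). The MBNL1 difference was 0.48 within set A and 0.68 within set B, and the MBNL2 difference 0.35 within set A and 0.72 within set B. Within set B, the only set with all cohorts, MBNL1+MBNL2 was 0.72 above +dox, which is 1 library there, so this value has no test.

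Ctnna3 had 76.5, 70.4 and 65.7 CPM in LV MBNL1, 63.7, 74.7 and 73.5 in MBNL2 and 69.1, 76.8 and 71.2 in MBNL1+MBNL2, all below every +dox library. The log2 differences were -0.31 (adjusted p = 0.0203), -0.32 (adjusted p = 0.0217) and -0.28 (adjusted p = 0.0371). Each was lost without some libraries: MBNL1 without replicate 1 or 2 of +dox or 2 or 3 of MBNL1 (adjusted p 0.0508 to 0.0804), MBNL2 without replicate 1 or 2 of +dox or 1 of MBNL2 (0.0688 to 0.141), and MBNL1+MBNL2 without replicate 1 or 2 of +dox or 1 or 3 of MBNL1+MBNL2 (0.0673 to 0.169). Without LV MBNL1 replicate 1 the MBNL1 value was -0.37 (adjusted p = 0.0202). With a library set term the MBNL1+MBNL2 value was -0.23 (adjusted p = 0.0541).

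Tjp1 had 168, 163 and 155 CPM in LV MBNL1, 168, 167 and 175 in MBNL2 and 164, 173 and 167 in MBNL1+MBNL2, again below every +dox library. The log2 differences were -0.31 (adjusted p = 0.00397), -0.24 (adjusted p = 0.0246) and -0.26 (adjusted p = 0.0133). The MBNL1 call held without each library (-0.34, adjusted p = 0.00935, without LV MBNL1 replicate 1). The MBNL2 call was lost without +dox replicate 1 or MBNL2 replicate 1 or 2 (adjusted p 0.0769 to 0.123), and the MBNL1+MBNL2 call without replicate 1 of either group (0.0752 to 0.0879). The Jup to Ctnna3 TPM ratio was 5.11 ± 0.509 in MBNL1, 4.86 ± 0.277 in MBNL2 and 4.79 ± 0.943 in MBNL1+MBNL2, against 2.81 ± 0.256 in +dox. The endothelial marker sum was 209.6 to 252, 238 to 266 and 214 to 258 TPM in these cohorts, in none of which did any of the 6 markers pass. The fibroblast marker sum was 676 to 777, 751 to 1057 and 749 to 965 TPM, and 1, 2 and 1 of its 6 markers rose. The MBNL2 and MBNL1+MBNL2 sums lay above every +dox library, and the part of either list was not tested.

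In the atria of the MBNL cohorts only Tjp1 passed. It was the 1 of 10 genes that fell in MBNL1 (-0.31, SE 0.0666, adjusted p = 0.0224), where 0.348% of all tested genes passed, and in MBNL1+MBNL2 (-0.28, SE 0.0666, adjusted p = 0.0339), where 0.686% did. In MBNL2 0 of 10 passed, against 0.0104% of all tested genes, and 1 had an unadjusted p below 0.05, again Tjp1 (-0.24, adjusted p = 0.573); DESeq2 also called 0. Its CPM were 222, 234 and 198 in MBNL1, 213, 241 and 234 in MBNL2 and 238, 216 and 212 in MBNL1+MBNL2, all below the lowest +dox value. The MBNL1 call was lost without replicate 1 or 2 of +dox or 1 or 3 of MBNL1 (adjusted p 0.0697 to 0.337), and the MBNL1+MBNL2 call without replicate 1 or 2 of +dox or 2 or 3 of MBNL1+MBNL2 (0.141 to 0.253). Jup differed by 0.25 (adjusted p = 0.388) in MBNL1, 0.02 (adjusted p = 1) in MBNL2 and 0.24 (adjusted p = 0.323) in MBNL1+MBNL2. Its libraries in MBNL1 (230 to 244 CPM) and MBNL1+MBNL2 (230 to 248 CPM) lay above the highest +dox library (209 CPM), while those of MBNL2 overlapped +dox.

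**Figure D2:**
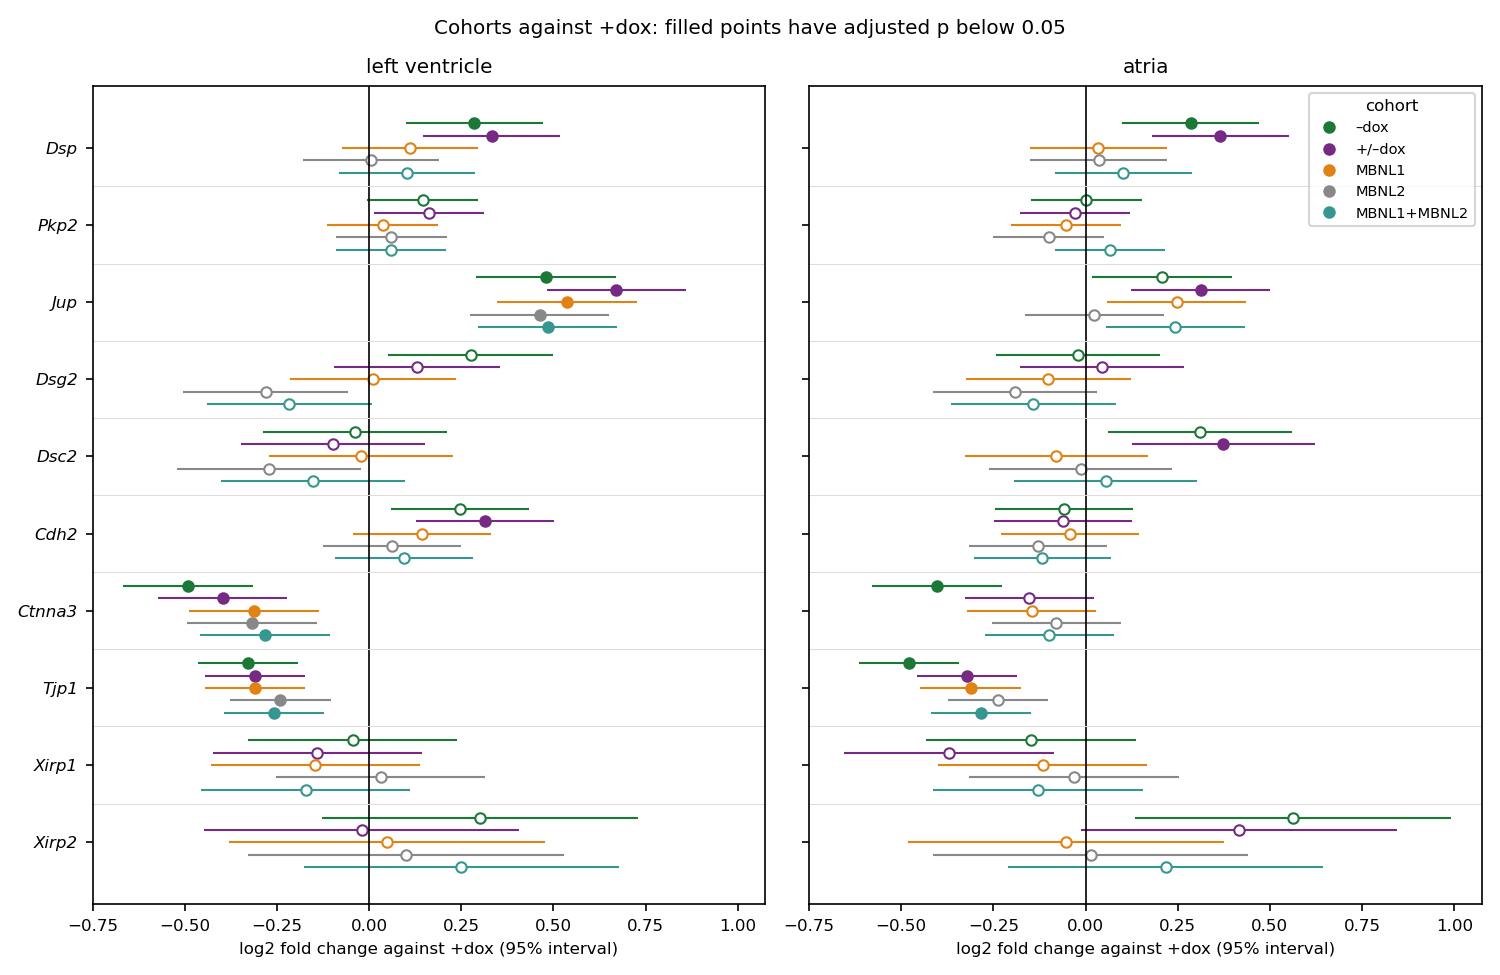
Log2 fold change of each gene against +dox in the LV (left panel) and atria (right panel), with 95% intervals, for the 5 other cohorts in colour; filled points have an adjusted p below 0.05 and the vertical line is no difference. In the LV the points of Jup lie between 0.46 and 0.67 and those of Ctnna3 and Tjp1 between -0.49 and -0.24 in every cohort.

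Set against +/–dox, in which doxycycline had been withdrawn, –dox differed in 0 of 10 genes in either chamber, where 0.0572% of all genes passed in the LV and 0.0208% in the atria. At an unadjusted p below 0.05 there was 1 gene in the LV and there were 2 in the atria, and DESeq2 also called 0. The MBNL cohorts were lower than +/–dox in a few desmosome genes. In the LV, 2 of 10 were lower in MBNL2 (background 5.39%): Dsg2 (-0.41, SE 0.11, adjusted p = 0.023) and Dsp (-0.33, SE 0.0909, adjusted p = 0.0294). For MBNL1 0 of 10 passed (background 2.67%) and for MBNL1+MBNL2 0 of 10 (background 1.77%), with 1 and 3 genes at an unadjusted p below 0.05 and 0 by DESeq2. Both MBNL2 calls were lost without some 1 library, Dsg2 without replicate 1 or 2 of either cohort (adjusted p 0.0921 to 0.144) and Dsp without replicate 1 or 3 of MBNL2 or 1 or 2 of +/–dox (0.0553 to 0.182).

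In the atria the genes lower than in +/–dox were Dsp, Dsc2 and Jup. For MBNL1 2 of 10 passed, Dsc2 (-0.45, SE 0.122, adjusted p = 0.0261) and Dsp (-0.33, SE 0.091, adjusted p = 0.0295), against a background of 4.60%. For MBNL2 3 of 10 passed, Dsc2 (-0.39, adjusted p = 0.0362), Dsp (-0.33, adjusted p = 0.0161) and Jup (-0.29, adjusted p = 0.0404), against 11.0%. For MBNL1+MBNL2 0 of 10 passed, against 6.86%, with 2 at an unadjusted p below 0.05 and 1 by DESeq2, Dsp (-0.26, adjusted p = 0.077 in edgeR). Dsc2 had 133, 150.5 and 141 CPM in MBNL1 and 147, 149.9 and 148 in MBNL2, all below the lowest +/–dox library. Without 1 library these calls rose to adjusted p 0.0546 to 0.128 for Dsc2 and 0.0957 to 0.143 for Dsp in MBNL1, and to 0.0783 to 0.153, 0.0627 to 0.1 and 0.0745 to 0.12 for Dsc2, Dsp and Jup in MBNL2. That held for replicate 1 or 2 of +/–dox in all of them, for any MBNL library for Dsc2, for replicate 1 or 3 of MBNL1 and 3 of MBNL2 for Dsp, and for each of the 6 libraries for Jup.

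Between the MBNL cohorts 0 of 10 genes passed in any comparison. In the LV the background was 0.0156% for MBNL2 against MBNL1, 0.00% for both against MBNL1 and 0.0520% for both against MBNL2. In the atria it was 0.0104%, 0.00% and 0.0104%. At an unadjusted p below 0.05 the 10 genes gave 2, 1 and 0 in the LV and 1, 0 and 2 in the atria, and DESeq2 called 0 in each. For Jup the LV difference of both against MBNL1 was -0.05 (95% interval -0.24 to 0.14), and for Ctnna3 it was 0.03 (95% interval -0.15 to 0.21), so a 1.5-fold difference lay outside both intervals.

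Whether a cohort moved these genes differently in the 2 chambers was tested as the LV effect minus the atrial effect. In the fit without pairing none of the 10 passed in any cohort: 0 of 10 in –dox (background 1.03%), +/–dox (0.692%), MBNL1 (0.0312%), MBNL2 (0.0364%) and MBNL1+MBNL2 (0.0728%), with 2, 3, 1, 1 and 0 at an unadjusted p below 0.05; DESeq2 called 0 in each. In +/–dox the Jup difference was 0.36 (95% interval 0.09 to 0.63, adjusted p = 0.214), and in MBNL2 it was 0.44 (95% interval 0.17 to 0.71, adjusted p = 0.195). Cdh2, higher in LV +/–dox and not in the atria, differed by 0.38 (95% interval 0.11 to 0.64, adjusted p = 0.184). That value passed on log2 TPM and with a library set term, as given in the closing section. With a block of cohort and number over both chambers Cdh2 passed in –dox (0.31, adjusted p = 0.0144) and in +/–dox (0.38, adjusted p = 0.0054), and no other of the 10 did in any cohort. Deviations of same-numbered LV and atrial libraries correlated at 0.0407 to 0.257, over 0.1 in 11 of 18 pairs, including every pair of +dox, –dox and MBNL2. In each cohort with both library sets r was highest for replicate 3, the only set B pair there. In MBNL1+MBNL2, all of set B, r was 0.0558 to 0.0703. A shared animal and a shared library set cannot be told apart in these values. The Ctnna3 difference was -0.24 (95% interval -0.49 to 0.00) in +/–dox, so its atrial value there was not shown to differ from the LV value. The Tjp1 difference was 0.01 (95% interval -0.18 to 0.20) in +/–dox, which leaves a 1.5-fold difference between chambers outside the interval.

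The chambers themselves differed in all 10 genes, 6 higher in the LV and 4 higher in the atria on normalized counts (Jup and Xirp1 changed sign on TPM), averaged over the 6 cohorts, where 69.0% of all genes passed. Past 1.5-fold on normalized counts there were 5, against 31.7% of all genes: Xirp2, Cdh2 and Dsp higher in the LV, and Dsc2 and Dsg2 higher in the atria. Among the desmosome genes of the 10, the cadherins were higher in the atria on both counts and TPM. The plaque genes Dsp, Pkp2 and Jup were higher in the LV on counts, but on TPM Pkp2 was only 0.08 and Jup had the opposite sign. Pkp4, a plakophilin relative outside the 10, was higher in the atria (-0.90, SE 0.0366, adjusted p = 1.84e-20), so the split did not extend to it. Xirp2 differed by 1.48 (SE 0.0868, adjusted p = 1.04e-14), Cdh2 by 0.96 (SE 0.0377, adjusted p = 9.28e-21) and Dsp by 0.79 (SE 0.0373, adjusted p = 9.70e-19). Dsg2 differed by -1.38 (SE 0.0455, adjusted p = 9.27e-23) and Dsc2 by -1.33 (SE 0.0506, adjusted p = 9.52e-21).

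The scale mattered for which genes were past 1.5-fold and, for some, for the sign. On TPM Dsp was 0.28 and Cdh2 0.46, both below 1.5-fold. On that scale 26.7% of all genes were past it with an adjusted p below 0.05 (limma). The median log2 difference of genes of at least 5 CPM was -0.00 on normalized counts and -0.45 on TPM, a shift that sets the zero of the TPM scale. Pkp2 was 0.58 on counts and 0.08 on TPM, Xirp1 0.36 and -0.14, and Jup 0.35 and -0.16, so Xirp1 and Jup changed sign. Tjp1 was -0.40 and -0.88, and Ctnna3 -0.50 and -0.97, so both were past 1.5-fold on TPM only. Relative to that median gene the scales gave closer values (counts against TPM). These were 0.36 against 0.29 for Jup, 0.37 against 0.31 for Xirp1, 0.58 against 0.53 for Pkp2 and 0.80 against 0.73 for Dsp. Cdh2 had 0.96 against 0.91, Ctnna3 -0.50 against -0.52 and Tjp1 -0.39 against -0.43. Dsg2 had -1.38 against -1.31 and Dsc2 -1.33 against -1.32. The gap was widest for Xirp2, at 1.48 against 1.26. On CPM every LV library was above every atrial library for Pkp2, Dsp, Cdh2 and Xirp2, and below for Dsg2 and Dsc2, while Jup, Ctnna3, Xirp1 and Tjp1 overlapped. On TPM, Dsg2, Dsc2, Ctnna3 and Tjp1 were lower, and Cdh2 and Xirp2 higher, in every LV library. Non-myocyte markers differed too: macrophage markers summed to 72.6 to 138 TPM in the LV and 164 to 320.4 in the atria, and mesothelial markers, another cell layer with desmosomes, to 0.78 to 3.75 and 15.0 to 104. None of the 5 macrophage markers and 1 of the 5 mesothelial markers was at 0 in some library, and their part was not tested.

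**Figure D3:**
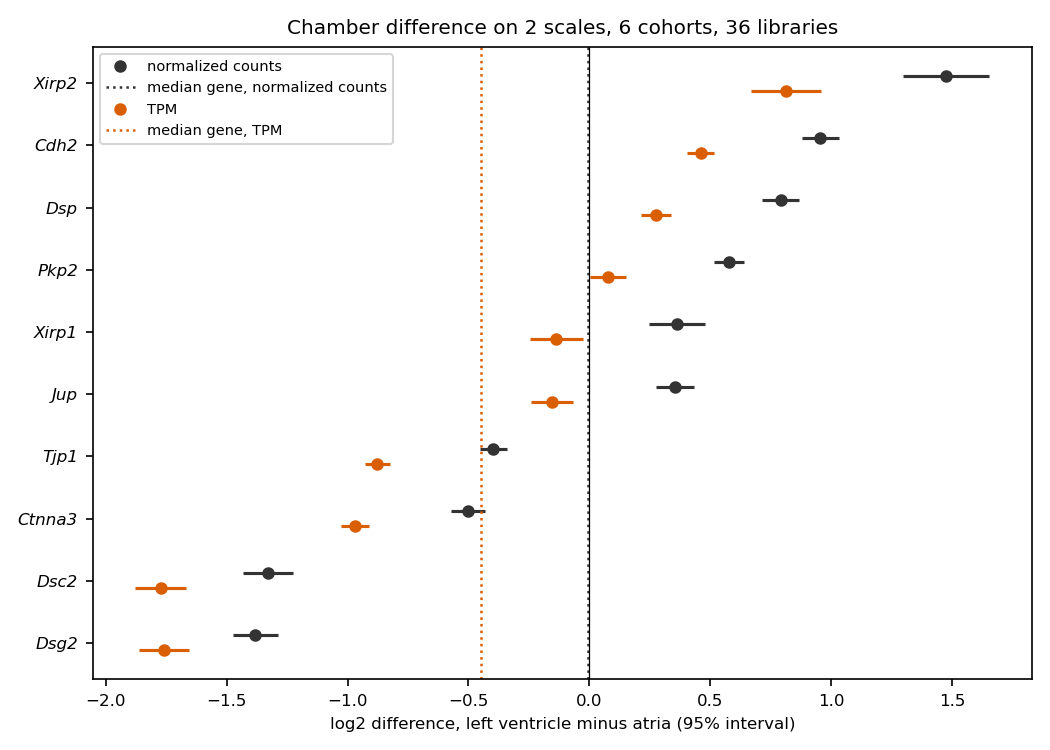
Log2 difference between LV and atria over all 6 cohorts (36 libraries), with 95% intervals, on normalized counts (black) and TPM (orange); dotted lines mark the median of genes of at least 5 CPM on each scale. Both scales place Xirp2 furthest to the LV side and Dsg2 and Dsc2 furthest to the atrial side, and Jup and Xirp1 lie on opposite sides of 0 on the 2 scales.

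RSEM divides counts among a gene's transcripts, so log2 of expected count over TPM follows the mean transcript length it assigned to the gene. This measure, added after the data had been seen, was compared over 11973 genes with limma. For Xirp2 the centred length was -0.17, -0.13 and -0.13 in the atrial +dox libraries, 0.05, 0.08 and -0.04 in –dox and 0.05, 0.00 and 0.01 in +/–dox. No –dox or +/–dox library overlapped +dox, and the differences were 0.17 (95% interval 0.10 to 0.24, adjusted p = 0.00298) and 0.16 (95% interval 0.10 to 0.23, adjusted p = 0.00465). Xirp2 passed in both cohorts: in –dox 2 of 10 genes passed and in +/–dox 1, against 1.35% and 1.35% of genes; the second in –dox was Tjp1, by 0.02 (adjusted p = 0.045). Shifts as large as that of Xirp2 were seen in 1.04% of genes in –dox and 1.24% in +/–dox. In the atria of the MBNL cohorts the Xirp2 difference from +dox was 0.02 (95% interval -0.05 to 0.09, adjusted p = 1) for MBNL1, 0.06 (95% interval -0.01 to 0.12, adjusted p = 1) for MBNL2 and 0.05 (95% interval -0.01 to 0.12, adjusted p = 0.361) for both. In the LV it was 0.02 in –dox and -0.01 in +/–dox. Over all cohorts the Xirp2 length was 0.13 higher in the LV than in the atria (95% interval 0.10 to 0.16, adjusted p = 6.20e-08), where 6.87% of genes passed. Which transcripts carry the shift was not analysed here.

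**Figure D4:**
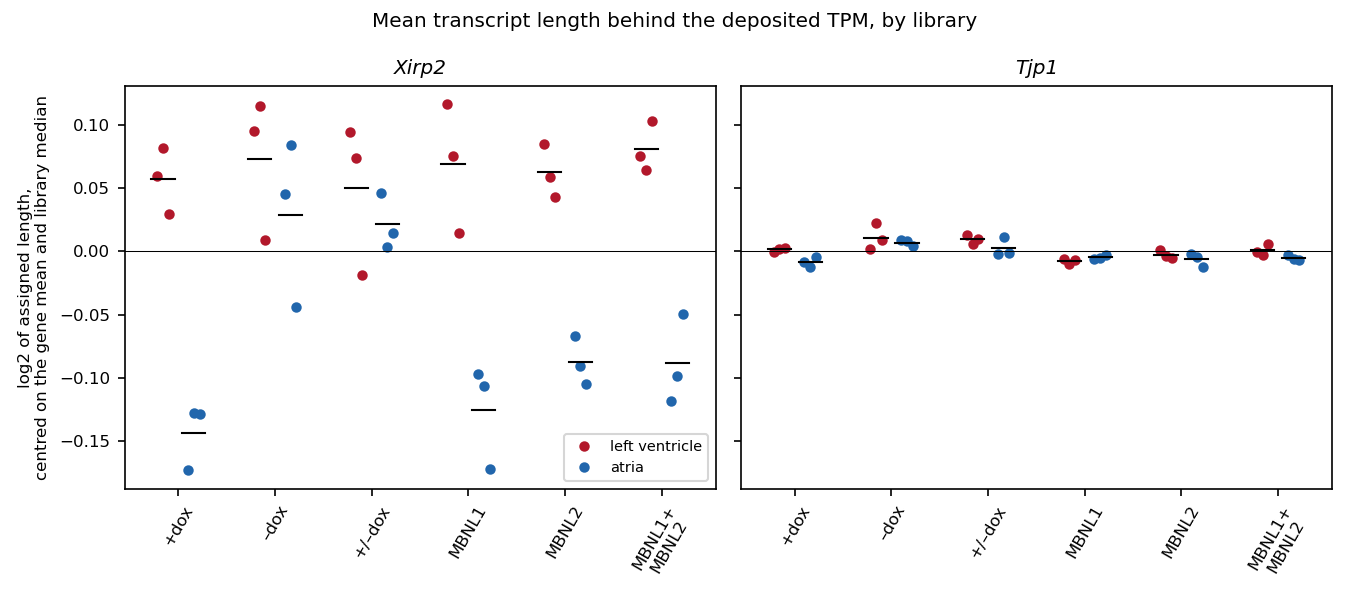
Centred log2 assigned transcript length (expected count over TPM; vertical axis) of Xirp2 (left) and Tjp1 (right) in every library by cohort, LV in red and atria in blue, with bars at the mean of 3. Atrial +dox libraries of Xirp2 lie at -0.17, -0.13 and -0.13, below all atrial –dox and +/–dox libraries, while Tjp1 stays near 0 throughout.

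The 10 genes were set beside 52 other genes of the disc, of which 46 had enough counts; Pkp1, Dsg1b, Dsg1c, Dsg4, Dsc1 and Ctnna2 did not. In LV –dox against +dox, 3 of 8 other desmosome genes rose and 1 fell, 1 of 12 adherens junction genes rose and 3 fell, and 4 of 26 further disc genes rose and 3 fell. In LV +/–dox the counts were 2 and 1, 0 and 2, and 8 and 5. In the atria they were 1 and 1, 0 and 3, and 3 and 7 in –dox, and 1 and 1, 0 and 1, and 2 and 6 in +/–dox. In the LV of the MBNL cohorts the counts were 2 and 1, 0 and 1, and 3 and 1 for MBNL1, 1 and 1, 1 and 1, and 2 and 1 for MBNL2 and 2 and 1, 0 and 1, and 2 and 2 for MBNL1+MBNL2. Over all tested genes the share that passed was 20.9% in LV –dox, 21.8% in LV +/–dox, 15.9% and 12.6% in the atria, and 8.95%, 7.43% and 8.34% in the MBNL cohorts. The lists were not tested as sets.

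By the naming rule 8 of these genes are given. Pkp4, a plakophilin relative (p0071) of Pkp2, fell in both chambers. It had 59.8 ± 1.24 TPM in LV +dox and 36.5 ± 2.37 in –dox (-0.69, SE 0.0893, adjusted p = 1.22e-06), and 161 ± 12.3 and 81.4 ± 5.62 in the atria (-0.97, SE 0.0895, adjusted p = 3.41e-09). It also fell in the LV of MBNL1 (-0.48, adjusted p = 0.00115), MBNL2 (-0.46, adjusted p = 0.00224) and MBNL1+MBNL2 (-0.66, adjusted p = 1.36e-05), the direction in which Ctnna3 and Tjp1 went. In the atria Pkp4 fell in MBNL1 (-0.42, adjusted p = 0.0191) and MBNL1+MBNL2 (-0.55, adjusted p = 0.0011), and did not pass in MBNL2 (-0.22, adjusted p = 0.954). The atrial MBNL1 call was lost without +dox replicate 1 or 2 or MBNL1 replicate 3 (adjusted p 0.157 to 0.295). Tln1, talin-1, an integrin-actin linker, rose in –dox in the LV (0.69, adjusted p = 5.57e-06) and the atria (0.94, adjusted p = 3.40e-08). It also rose in LV MBNL1 (0.60, adjusted p = 0.000257), MBNL2 (0.55, adjusted p = 0.0011) and MBNL1+MBNL2 (0.54, adjusted p = 0.000625). In the atria it rose in MBNL1 (0.60, adjusted p = 0.0012) and MBNL1+MBNL2 (0.53, adjusted p = 0.00473), and did not pass in MBNL2 (0.31, adjusted p = 0.722). The atrial MBNL1+MBNL2 call was lost without replicate 3 of that cohort (adjusted p = 0.0685). Nrap, an actin-binding protein of the cardiomyocyte ends, rose in –dox too (0.67, adjusted p = 0.00418 in the LV and 0.59, adjusted p = 0.0137 in the atria). The atrial call was lost without +dox replicate 3 (adjusted p = 0.0871). Cxadr, the coxsackievirus and adenovirus receptor, an adhesion molecule of the disc, fell in –dox in the LV (-0.68, adjusted p = 2.36e-05) and the atria (-0.46, adjusted p = 0.00283). It also fell in LV MBNL1 (-0.60, adjusted p = 0.000697), MBNL2 (-0.42, adjusted p = 0.0151) and MBNL1+MBNL2 (-0.49, adjusted p = 0.00332). The LV MBNL2 call was lost without +dox replicate 1 or MBNL2 replicate 1 or 3 (adjusted p 0.0524 to 0.0721). Cxadr did not pass in the atria of the MBNL cohorts. Nectin3, an adhesion molecule of the adherens junction, fell in LV –dox (-0.70, adjusted p = 2.36e-05), while its atrial value was -0.15 (adjusted p = 0.405); the difference between chambers did not pass (-0.56, adjusted p = 0.0754), although it did with DESeq2, with limma voom and with a block of cohort and number over both chambers. Nectin3 also fell in LV MBNL1 (-0.35, adjusted p = 0.0401), a call lost without some 1 library, and Nrap passed in no MBNL cohort. No call of Pkp4, Tln1, Cxadr or Nectin3 in –dox was lost without 1 library.

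Popdc3, a popeye-domain membrane protein, passed in 1 chamber in –dox. It had 23.5 ± 0.684 TPM in atrial +dox and 10.4 ± 1.3 in –dox (-1.13, SE 0.128, adjusted p = 1.72e-07), against -0.27 (adjusted p = 0.121) in the LV, and its difference between chambers was 0.85 (SE 0.178, adjusted p = 0.00983). In +/–dox it fell in both chambers (LV -0.40, adjusted p = 0.0222, and atria -0.95, adjusted p = 3.80e-06), the LV call being lost without some 1 library. Its difference between chambers did not pass there (0.56, adjusted p = 0.148), although it did with limma voom and with a block of cohort and number over both chambers. Fhl2, a LIM-domain protein, fell in atrial –dox (-0.97, SE 0.175, adjusted p = 0.000282) and was -0.20 (adjusted p = 0.472) in the LV. Its difference between chambers in –dox did not pass (0.78, adjusted p = 0.142). That difference did pass with the same 3 alternatives as for Nectin3 and without atrial +dox replicate 3 (0.99, adjusted p = 0.0186). Dsg3, a desmosomal cadherin of skin, rose in LV –dox on the fitted scale (3.11, adjusted p = 0.0233), but its level was at most 0.14 TPM in any library, and the call was lost without +dox replicate 1 or +dox replicate 2 or –dox replicate 1 (adjusted p 0.107 to 0.259) and on log2 TPM.

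Between the chambers 15 of the 46 genes were past 1.5-fold, 8 higher in the LV and 7 in the atria, against the background of 31.7% above. Those with the largest differences were Dsc3 (-3.11, adjusted p = 2.25e-06) and Dsg3 (-2.61, adjusted p = 3.15e-06), both at trace levels, Fhl2 (2.73, adjusted p = 1.09e-22) and synemin, Synm (-1.48, adjusted p = 9.53e-25), an intermediate filament protein. Fhl2 was thus LV-rich and Synm atrial-rich.

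**Figure D5:**
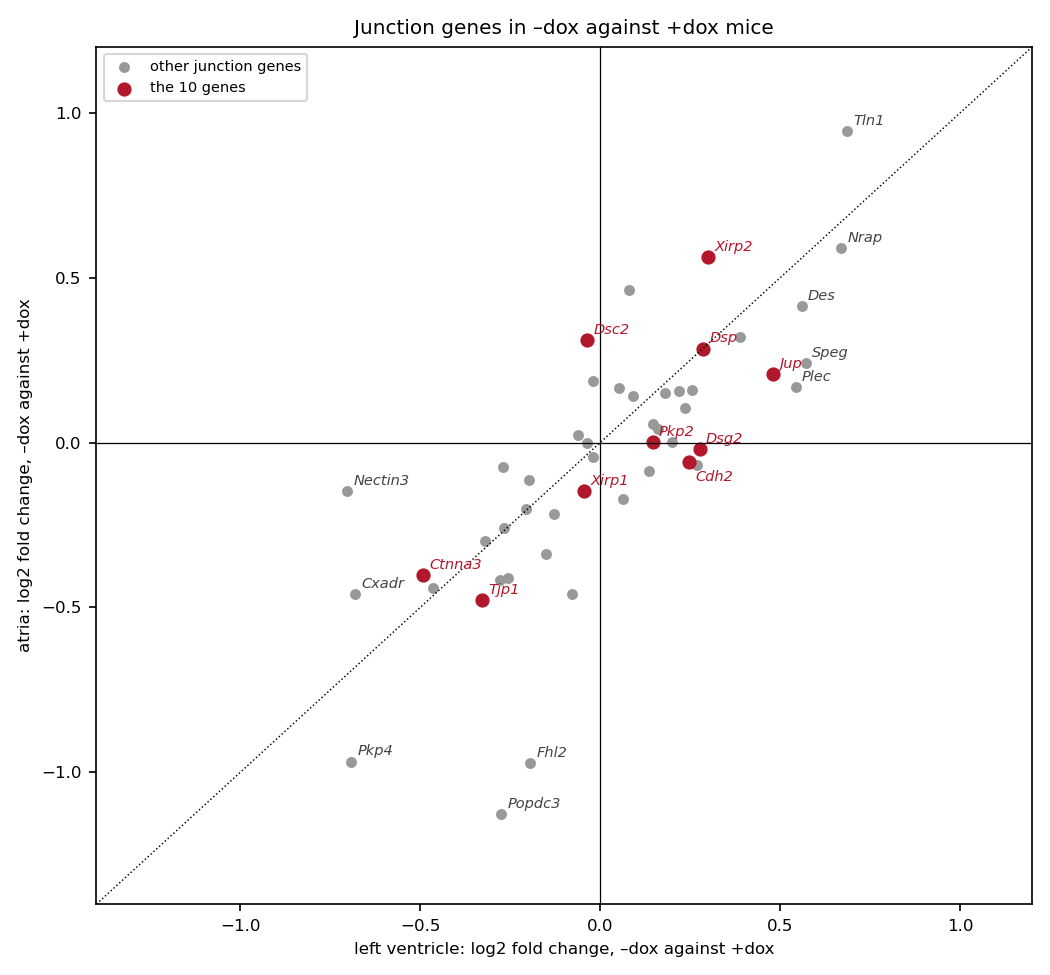
Log2 fold change in –dox against +dox in the LV (horizontal axis) and the atria (vertical axis), 1 point a gene, for the 10 genes (red) and other disc genes (grey); the dotted line marks equal change, and Dsg3, Dsg1a and Dsc3, which have few counts, are left out. Ctnna3, Tjp1 and Pkp4 lie low on both axes, Jup and Dsp high on both, and Popdc3 away from the dotted line.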

How the data were processed

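The authors sequenced stranded poly(A) libraries (paired 150-base reads), aligned them to mm10 with STAR 2.7.10b and quantified genes with RSEM 1.3.1 on the GENCODE annotation. The deposited files hold expected counts, which RSEM estimates and which need not be whole, and TPM per symbol; the strand setting is not given in the sources used here. No per-sample column was left out (0).

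Expected counts were rounded and tested with edgeR 4.0.16 (R 4.3.3; TMM, filterByExpr, robust quasi-likelihood fit) in 1 fit of all 36 libraries with 12 group means, and p-values were adjusted by Benjamini-Hochberg over 19231 genes. A gene passed at an adjusted p below 0.05, and CPM used TMM sizes. The fit was tested on simulated data. Alternatives were DESeq2 1.42.0, limma 3.58.1 (voom, and trend on log2(TPM + 1) or log2(TPM + 0.1)), RLE factors, no filter, single chambers, a replicate block, a library set term and leaving out 1 library. Libraries with the same number were not paired in the fit of all libraries: their deviations correlated at 0.0407 to 0.257 between chambers, over 0.1 in every pair of +dox, –dox and MBNL2 and in some or none of the other cohorts, and at -0.115 to 0.135 between LV cohorts. The labels do not tie the replicates' numbers to animals, although both tissues came from the same animals, so chamber tests treat samples of one animal as independent.

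Replicate libraries were checked for duplicates: the chi-square per degree of freedom of 36 pairs was 10.3 to 145, and none matched. The 10 genes were given by name, and they and the other lists were chosen with earlier results of these data known. Of 52 other disc genes, the 8 with the largest –dox change among those past 1.5-fold were named, and 4 with the largest chamber difference; some disc genes are not reported here. Positions are from GENCODE M21 (GRCm38).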

Additional observations from a re-analysis of the deposited data

Results flagged for a closer look

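The effect of –dox against +dox differed between the chambers for 1 of the other disc genes named, Popdc3, by a test of the difference itself (LV effect minus atrial effect, on the log2 scale, edgeR). It was 0.852 (SE 0.178, 95% interval 0.49 to 1.22, adjusted p = 0.00983), and it was not lost without any 1 of the 12 libraries or under the 8 other settings run. The differences of Nectin3 and Fhl2 missed the threshold in this fit and passed under 3 of those 8 settings, and that of Fhl2 also without 1 library. None of the 10 genes passed this test in this fit (Cdh2 did with a block of cohort and number over both chambers), while 1.03% of all tested genes did. In +/–dox against +dox, where Popdc3 fell in both chambers, its difference between chambers did not pass (0.557, adjusted p = 0.148), although it did under 2 of the 8 other settings.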

How the results depend on the processing

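On log2 TPM, with a pseudocount of 1 and of 0.1, the LV minus atria difference reversed for Jup over all cohorts (-0.156 and -0.157), in –dox (-0.198 and -0.200) and in +dox (-0.474 and -0.478), for Xirp1 over all cohorts (-0.137 and -0.139) and in –dox (-0.124 and -0.125), and for Pkp2 in +dox (-0.0594 and -0.0604). Xirp1 in +dox also changed sign, from 0.309 on counts to -0.245 on log2(TPM + 1), but passed on neither scale. The number of the 10 genes that passed moved by more than 1.5 times as follows. On log2 TPM, with either pseudocount, it became 1 in LV MBNL2 and LV MBNL1+MBNL2 and 0 in atrial MBNL1+MBNL2 against +dox, 1 in LV MBNL2, atrial MBNL1 and atrial MBNL2 against +/–dox, and 1 for the chamber difference in +/–dox (Cdh2, 0.41 and 0.42, adjusted p = 0.0233 and 0.0367); 1 gene was also past 1.5-fold in LV MBNL1 and in LV MBNL2. With limma voom it became 5 in atrial –dox, and 1, 4 and 1 in LV MBNL1, MBNL2 and MBNL1+MBNL2 and 2 in atrial MBNL1+MBNL2 against +/–dox. With each chamber fitted alone it became 6 in atrial –dox, 0 in atrial MBNL1 and MBNL1+MBNL2, and, against +/–dox, 0 in LV MBNL2 and 1 in atrial MBNL1+MBNL2; DESeq2 also gave 1 in the last. With a library set term it became 0 in atrial MBNL1+MBNL2, 1 in LV MBNL1+MBNL2 against +/–dox and 1 for the chamber difference in +/–dox (Cdh2, 0.38, adjusted p = 0.0452), and 1 gene was past 1.5-fold in LV MBNL1+MBNL2; smaller moves against +dox were to 5 in LV –dox (Cdh2 gained), 4 in LV MBNL1+MBNL2 (Dsp and Xirp2 gained, Ctnna3 lost), 4 in atrial –dox (Xirp2 gained) and 5 in atrial +/–dox (Xirp1 gained). With no filter it became 0 in atrial MBNL1+MBNL2 and 1 in atrial MBNL1 against +/–dox. With no fold threshold the called genes became 4, 5, 3, 3 and 3 in LV –dox, +/–dox, MBNL1, MBNL2 and MBNL1+MBNL2, 3, 4, 1 and 1 in atrial –dox, +/–dox, MBNL1 and MBNL1+MBNL2, and 10 between the chambers, as the rule's construction gives. The cause of the other moves was not tested.

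With the replicate block within a chamber 1 gene passed in atrial MBNL1+MBNL2 against +/–dox, and against +dox it was 5, 5, 3, 3 and 3 in the LV and 3, 5, 1, 0 and 1 in the atria, in the order above; a block of cohort and number over both chambers gave 1 gene for the chamber difference in –dox and 1 in +/–dox, Cdh2 in each (adjusted p = 0.0144 and 0.0054). The labels do not pair the samples by number: 11 of 18 chamber pairs (all 6 of +dox and –dox), 3 of 15 LV pairs and 7 of 15 atrial pairs correlated over 0.1.

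Without 1 replicate the genes that passed against +dox were 3 to 5 in LV –dox and +/–dox, 2 to 3 in LV MBNL1, 1 to 3 in LV MBNL2 and MBNL1+MBNL2, 2 to 3 in atrial –dox, 2 to 4 in atrial +/–dox, and 0 to 1 in atrial MBNL1 and MBNL1+MBNL2. Against +/–dox they were 0 to 2 in LV MBNL2, atrial MBNL1 and atrial MBNL2, and 0 to 1 in LV and atrial MBNL1+MBNL2. Past 1.5-fold there were 0 to 1 in LV +/–dox, MBNL1 and MBNL1+MBNL2, and 5 to 6 between the chambers. Single genes and settings were counted by their side of the threshold. A reversal was a change of sign where either value passed, and a change of sign where neither passed was counted as kept. Against +dox 1402 values kept their side, 28 gained a pass, 70 lost it and none reversed. Against +/–dox 1136 kept their side, 19 gained a pass and 45 lost it. Between MBNL cohorts 900 kept their side. For the chamber differences of effects 995 kept their side and 5 gained a pass. Between the chambers 699 kept their side, 5 gained a pass, 4 lost it and 12 reversed. Each of the 10 genes had at least 2896 reads in every library, and each group had 3 libraries.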

Other observations

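In each chamber the gene of the 10 with the smallest p in –dox was compared with all tested genes of at least 5 CPM on average, by Pearson's r of log2 CPM over the 18 libraries, as a description; the libraries share cohort differences and set. For Ctnna3 in the LV the highest of 10237 were Rabggtb (0.957), Cyp39a1 (0.900), Sspn (0.899), Bhlhb9 (0.897) and Krt222 (0.896), whose log2 differences in –dox were -0.42, -0.63, -0.56, -0.79 and -1.33. For Tjp1 in the atria the highest of 10472 were Rapgef5 (0.931), Tcf20 (0.929), Jam3 (0.922), Polr3b (0.920) and Ccni (0.912), with -0.47, -0.49, -0.38, -0.39 and -0.36. Jam3 encodes a junctional adhesion molecule, and Sspn sarcospan.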
